A study of Mus musculus with 12 samples.

Results

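Wnt proteins are secreted lipid-modified signals that bind Frizzled receptors and Lrp co-receptors on nearby cells. In the canonical branch they stop the destruction complex, built on Axin proteins, from degrading β-catenin, which then enters the nucleus and acts with Tcf and Lef factors. The 10 genes described here take 3 roles in this pathway. Wnt8b, Wnt5a, Wnt7a and Wnt7b encode ligands. Axin2, Nkd1, Nkd2 and Lef1 are known targets that pathway activity induces and that feed back on it. Sfrp1 and Dkk3 encode secreted proteins of antagonist families. All are protein-coding. They were chosen by name, with earlier results of these data known, as 10 of the 54356 genes to which the deposited transcript values were assigned. All 10 were among the 14607 genes that passed a filter on low read counts. Shares of them called, set beside the shares of all genes, therefore describe these genes and do not test the pathway. In the developing midbrain, Wnt signals are known for patterning and for the generation of dopaminergic neurons, and in the cortex for patterning from its medial edge.

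The cells were astrocyte cultures from the cortex or the midbrain of C57BL/6 mice. Mock cultures stayed in growth medium. The other cultures received a short hairpin RNA against PTB (shPTB), the splicing repressor encoded by Ptbp1, and were held in neuronal differentiation medium for 2 or for 4 weeks, so the effects of hairpin and medium cannot be told apart. Each of the 6 groups held 2 libraries, 12 in all. The labels give neither the age of the mice nor whether the 2 libraries of a group came from different cultures. The p-values therefore reflect only differences among these libraries, possibly technical ones. The series was set up to follow gene expression as astrocytes with depleted PTB were driven towards neurons.

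Libraries held 6022098 to 11385761 reads, and levels are given as CPM, read counts relative to the library size after TMM scaling. A count of 0 in a library allows up to 3 reads, or 0.163 to 0.576 CPM, and this floor and the exact intervals of read ratios cover counting error only. Ptbp1 fell in cortex at 2 and 4 weeks and in midbrain at 2 weeks (log2 fold changes −1.53 ± 0.21, −1.24 ± 0.21 and −1.22 ± 0.21, adjusted p at most 0.00122), while its value in midbrain at 4 weeks was −0.50 ± 0.20 with an adjusted p of 0.0744. All 10 astrocyte markers had at least 1 CPM in every library. The summed CPM of 8 microglia markers ranged from 1150 to 1740 in mock libraries against 22.0 to 70.4 with shPTB. That of 8 neuron markers was 125 to 206 against 37.2 to 85.4. Of 7 neuron markers tested, 3 passed as higher and 3 as lower in cortex at 2 weeks. In the other comparisons with mock, 3 to 5 passed as lower and 0 as higher. From cortex mock to 2 weeks, Tubb3 went from 1788 to 247 reads, but Snap25 from 9 to 30 and Rbfox3 from 9 to 24. The summed CPM of 8 fibroblast or meningeal markers was 2100 and 2210 in midbrain mock, 826 and 851 in cortex mock, and 50.9 to 331 with shPTB. The 8 ependymal or choroid plexus markers summed to 149 to 211 CPM in mock libraries. With shPTB they summed to 19.6 to 24.8 in cortex and 87.9 to 102 in midbrain. At each time 3 of them passed as higher and 5 as lower in midbrain, and 1 and 5 in cortex. In midbrain Ttr went from 43 reads to 412 and 475, and Rsph1 from 3562 to 592 and 414. In mock, cortex shPTB and midbrain shPTB libraries, 8 radial glia or progenitor markers summed to 3090 to 3970, 736 to 1620 and 1420 to 2340 CPM. Most of their reads came from Vim (97759 in cortex mock and 117470 in midbrain mock). The part of these marker groups in the results was not tested. Mitochondrially encoded genes took 16.9 to 22.7% of the reads in mock and 36.4 to 48.3% in shPTB libraries. With total reads as the library size in place of TMM, the median log2 change of all genes against mock went from between −0.15 and −0.07 to between −1.21 and −0.74. In bulk RNA, fewer cells of a type and less RNA per cell cannot be told apart.

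Wnt8b and Nkd1 responded differently in the 2 regions. Both rose with shPTB in cortex. In midbrain Wnt8b fell, and Nkd1 stood at 1.11 and 1.08 times its mock level without passing the test. In mock cultures both were higher in midbrain than in cortex, as was Nkd2, while Sfrp1 was lower. Wnt5a, encoding a mostly non-canonical ligand, and Nkd2 fell in both regions at both times. Wnt7b and Lef1 fell in 3 and Axin2 in 1 of the 4 comparisons with mock. The Lef1 call in cortex at 4 weeks rests on 13 mock reads against 0 and was lost in many alternatives. Sfrp1 rose in 2 of them, by at most 1.59-fold, and Dkk3 passed the test in none.

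In cortex, 5 of the 10 genes passed the test at 2 weeks (2 higher, 3 lower) and 6 at 4 weeks (3 higher, 3 lower), where 35% (17.5% higher, 17.6% lower) and 39.4% (18.5% higher, 20.9% lower) of all tested genes passed. In midbrain, 7 passed at 2 weeks (2 higher, 5 lower) and 6 at 4 weeks (all lower), where 30.6% (15.9% higher, 14.7% lower) and 39.2% (18.7% higher, 20.4% lower) of all genes passed. The median log2 change of the 10 genes was −0.70 and −0.30 in cortex at 2 and 4 weeks and −1.26 and −1.68 in midbrain, beside −0.11, −0.12, −0.07 and −0.15 over all tested genes. Without cortex 2-week replicate 1 or 2 the cortex 2-week count was 3, without midbrain 2-week replicate 1 or 2 the midbrain 2-week count was 4 or 2, and without cortex 4-week replicate 1 the cortex 4-week count was 3. Within each region the 2-week and 4-week comparisons share their mock libraries. The 10 genes were chosen with earlier results of these data known, so their counts beside the shares of all genes are descriptions only. Scaled to total reads, the calls were 2 higher and 5 lower and then 2 higher and 6 lower in cortex, and 0 higher with 7 and then 8 lower in midbrain. Between 2 and 4 weeks none of the 10 passed in either region by edgeR or by DESeq2 (background 2.77% in cortex and 2.66% in midbrain). At an unadjusted p under 0.05, edgeR and DESeq2 each counted 2 of them in cortex and 1 in midbrain.

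**Figure D1:**
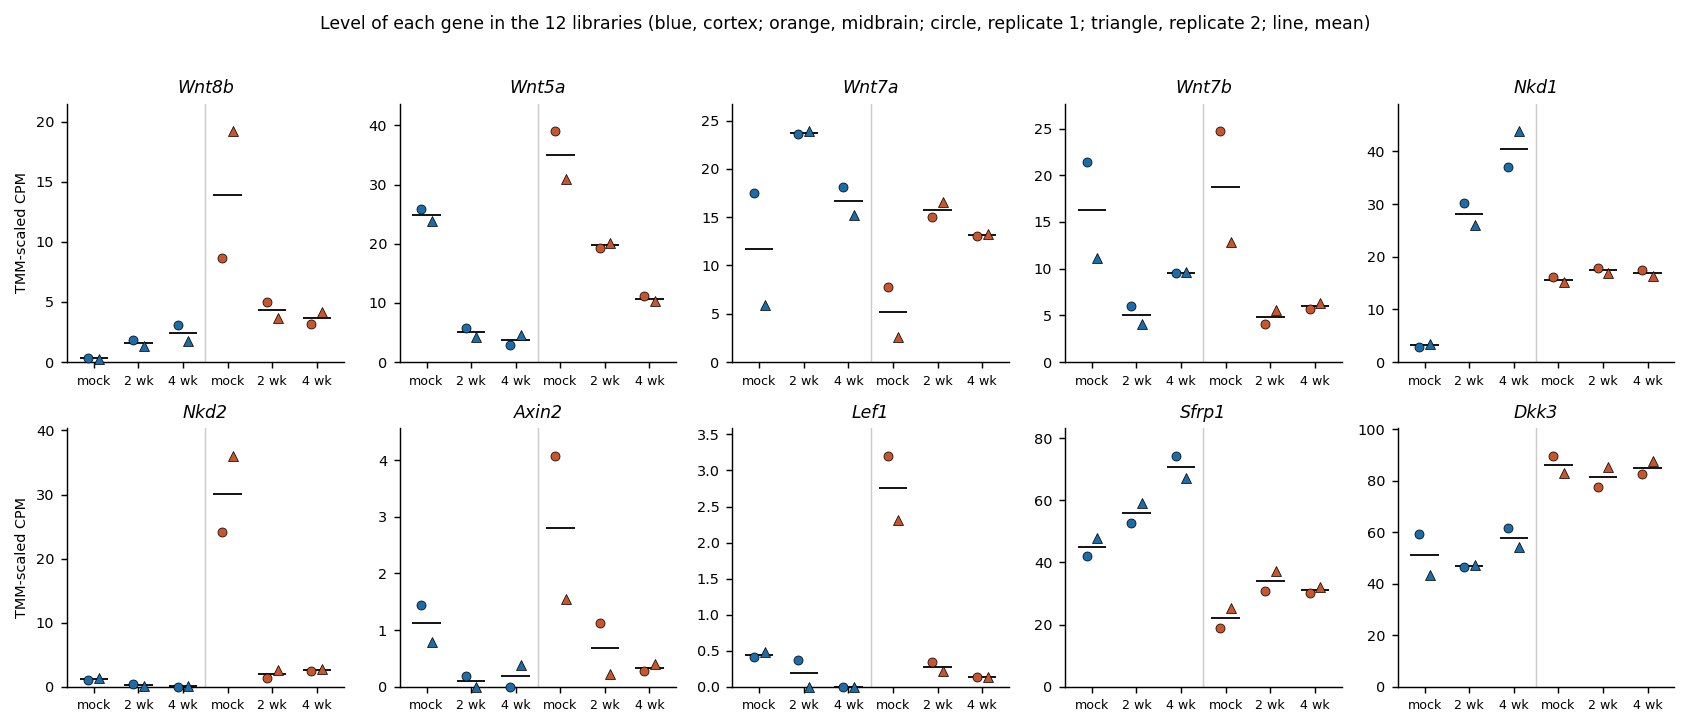
TMM-scaled CPM of the 10 genes in each of the 12 libraries, on linear axes that start at 0, with cortex in blue and midbrain in orange, a circle for replicate 1, a triangle for replicate 2 and a line for the mean of the 2. Nkd1 goes from 2.79 and 3.50 CPM in cortex mock to 37.0 and 43.8 CPM at 4 weeks, while its 6 midbrain libraries sit between 15.1 and 17.9 CPM.

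Wnt8b, a canonical ligand best known from the medial edge of the embryonic cortex, lies at chr19:44493472-44514273 on the plus strand (GRCm38). Its RefSeq promoter is shown because Wnt8b changed in opposite directions in the 2 regions. The 250 bases before the annotated start (GRCm38.p6, chr19:44493222-44493471, plus strand, 5′ to 3′, CG pairs in capitals) hold 5 CG pairs, where the median over 32851 such windows is 6 and the quartiles are 2 and 16:
Wnt8b: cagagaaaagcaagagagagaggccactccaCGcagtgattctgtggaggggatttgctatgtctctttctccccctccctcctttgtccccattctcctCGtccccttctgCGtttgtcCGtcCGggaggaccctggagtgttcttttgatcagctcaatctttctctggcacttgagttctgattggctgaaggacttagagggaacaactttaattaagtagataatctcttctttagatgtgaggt

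In cortex mock, Wnt8b had 0.349 and 0.239 CPM, from 9 reads in all. At 2 weeks it had 1.87 and 1.30 CPM, and at 4 weeks 3.11 and 1.73 CPM, from 18 and 26 reads. The lowest shPTB library thus stood above both mock libraries. Relative to mock the reads were 5.18 times as many at 2 weeks (exact 95% interval 2.21 to 13.1) and 8.07 times at 4 weeks (3.66 to 19.6), with log2 fold changes of 2.34 ± 0.65 and 2.96 ± 0.61 (adjusted p = 0.0161 and 0.0028). The 2-week call was lost without cortex mock replicate 1 or 2 or cortex 2-week replicate 1 (adjusted p up to 0.108), and the 4-week call held in every alternative.

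In midbrain mock, Wnt8b had 8.68 and 19.2 CPM, replicate 1 standing at 0.452 times replicate 2. At 2 weeks it had 4.98 and 3.64 CPM and at 4 weeks 3.18 and 4.15 CPM, all below the lower mock library. The log2 fold changes were −1.69 ± 0.40 and −1.92 ± 0.41 (adjusted p = 0.00824 and 0.00386). Both calls depended on read counts taken without transcript length. The effective length that Salmon gave the Wnt8b transcript, the length over which it spreads reads after any correction for bias, was 5571 to 7201 bases in mock and 3189 to 3951 bases in shPTB libraries, for a transcript of 3376 bases. With these lengths as an offset the midbrain changes were −0.44 and −0.34 (adjusted p = 0.522 and 0.611), and the cortex rises remained past the threshold. The 2-week call was also lost without midbrain mock replicate 2 or midbrain 2-week replicate 2.

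The difference of the regions' responses, tested as an interaction, was −4.03 ± 0.76 log2 units at 2 weeks and −4.88 ± 0.73 at 4 weeks (midbrain minus cortex, adjusted p = 0.0390 and 0.00477). Wnt8b and Nkd1 were the 2 of 10 genes that passed this test at 2 and at 4 weeks, both as lower, where 0.685% (0.26% lower) and 2.55% (0.644% lower) of all genes passed. The 2-week term for Wnt8b was lost in 9 of 19 alternatives, among them the length offset and leaving out any one of 6 libraries, namely either cortex mock, either cortex 2-week or either midbrain 2-week replicate. The 4-week term was lost in 1 of 19, without cortex 4-week replicate 1 (adjusted p = 0.0639). In levels, the regions lay 44.7-fold apart in mock (exact interval 23.3 to 98.3, adjusted p = 0.000207), 2.75-fold at 2 weeks and 1.51-fold at 4 weeks, midbrain being higher each time, and the differences at 2 and 4 weeks did not pass (adjusted p = 0.173 and 0.580).

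Wnt5a, a ligand that mostly signals through receptors other than the β-catenin branch and acts in midbrain morphogenesis, lies at chr14:28504750-28527448 on the plus strand. Cortex mock libraries had 25.8 and 23.8 CPM, the 2-week libraries 5.80 and 4.22 CPM and the 4-week libraries 2.93 and 4.61 CPM. Midbrain mock libraries had 39.0 and 30.9 CPM, the 2-week libraries 19.3 and 20.2 CPM and the 4-week libraries 11.1 and 10.3 CPM. In each region every shPTB library lay below both mock libraries. Wnt5a fell by 2.31 ± 0.25 and 2.72 ± 0.26 log2 units in cortex (adjusted p = 5.19e-05 and 1.82e-05) and by 0.82 ± 0.22 and 1.71 ± 0.23 in midbrain (adjusted p = 0.0146 and 0.000201). The midbrain 2-week call was lost without midbrain mock replicate 1 or either midbrain 2-week replicate.

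The regions' Wnt5a levels were 1.42-fold apart in mock, without passing the test (0.50 ± 0.21 log2, adjusted p = 0.459). At 2 weeks midbrain was 3.99-fold and at 4 weeks 2.85-fold higher than cortex (1.98 ± 0.25 and 1.5 ± 0.27 log2, adjusted p = 0.00207 and 0.00529). These calls were lost without cortex 2-week replicate 2 (adjusted p = 0.0549) and without cortex 4-week replicate 1 (0.0820). By edgeR the interaction did not pass, at 1.49 ± 0.33 with an adjusted p of 0.0891 at 2 weeks and 1.01 ± 0.34 with 0.194 at 4 weeks, but at 2 weeks it passed by DESeq2 (adjusted p = 0.0313) and without a count filter (0.0218). Of 8 fibroblast or meningeal markers, all detected in mock, 5 passed as lower and 2 as higher in cortex at each time, and 4 or 5 as lower and 2 as higher in midbrain. Most of their reads came from Col1a1 (10455 in cortex mock and 32490 in midbrain mock), Acta2 and Col1a2. Their part in the Wnt5a values was not tested. A gene annotated antisense to Wnt5a, Gm2670, had 1.03 to 31.5 reads per library, 3.83% of the Wnt5a reads over the 12 libraries, and without stated strandedness reads in the overlap cannot be told apart.

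Wnt7a and Wnt7b are close relatives that signal canonically and in the brain act on blood vessels and on neural progenitors. They lie at chr6:91363981-91411363 and chr15:85535437-85582473, both on the minus strand. In mock cultures the libraries numbered 1 stood above those numbered 2 for both genes and in both regions. Wnt7a was 2.98 times as high in replicate 1 as in replicate 2 in cortex mock and 2.97 times in midbrain mock, and Wnt7b 1.92 and 1.93 times. The same ratios in the shPTB groups were 0.909 to 1.19 for Wnt7a and 0.738 to 1.48 for Wnt7b.

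Wnt7a had 17.5 and 5.89 CPM in cortex mock, 23.6 and 23.9 CPM at 2 weeks and 18.1 and 15.2 CPM at 4 weeks. In midbrain it had 7.81 and 2.63 CPM in mock, 15 and 16.6 CPM at 2 weeks and 13.1 and 13.3 CPM at 4 weeks. The groups overlapped only for cortex at 4 weeks among these comparisons with mock. Wnt7a rose in midbrain at 2 weeks (1.58 ± 0.50 log2, adjusted p = 0.0327), a call lost without midbrain mock replicate 2 or either midbrain 2-week replicate, with only the groups compared and when scaled to total reads. The other changes were 1.32 ± 0.50 in midbrain at 4 weeks (adjusted p = 0.0569, and 0.0271 by DESeq2), 1.0 ± 0.48 in cortex at 2 weeks (0.129) and 0.50 ± 0.49 at 4 weeks (0.450). The cortex values turn on the mock libraries: without cortex mock replicate 1 they were 2.00 and 1.49 and passed (adjusted p = 0.00779 and 0.0295), and without replicate 2 they were 0.43 and −0.08. The 2-week value also passed with the length offset (1.57) and without a count filter. Salmon placed only 5.49 to 15.5% of the Wnt7a reads per group on the coding transcript and the rest on 2 short processed transcripts of 293 and 297 bases, so these values are for the gene as a whole.

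Wnt7b had 21.4 and 11.1 CPM in cortex mock, 5.99 and 4.06 CPM at 2 weeks and 9.52 and 9.61 CPM at 4 weeks. In midbrain it had 24.7 and 12.8 CPM in mock, 4.07 and 5.52 CPM at 2 weeks and 5.66 and 6.29 CPM at 4 weeks. All shPTB libraries lay below the lower mock library of their region. Wnt7b fell by 1.71 ± 0.40 log2 units in cortex at 2 weeks and by 1.97 ± 0.39 and 1.65 ± 0.38 in midbrain at 2 and 4 weeks (adjusted p = 0.00708, 0.00303 and 0.00616), while the cortex change at 4 weeks was −0.77 ± 0.38 (adjusted p = 0.127). This last value was −0.23 without cortex mock replicate 1, and it passed without cortex mock replicate 2 (−1.17, adjusted p = 0.0207), with the length offset (−1.64), with total reads (−1.93) and without a count filter. The cortex 2-week call was lost without cortex 2-week replicate 2 (adjusted p = 0.0782), and the midbrain 4-week call without midbrain 4-week replicate 1 (0.0549). Wnt7b differed between the regions by −0.68 to 0.20 log2 units in the 3 states, with adjusted p from 0.410 to 1. The antisense gene AU022754 had 93 reads in all, 6.21% of the Wnt7b reads.

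**Figure D2:**
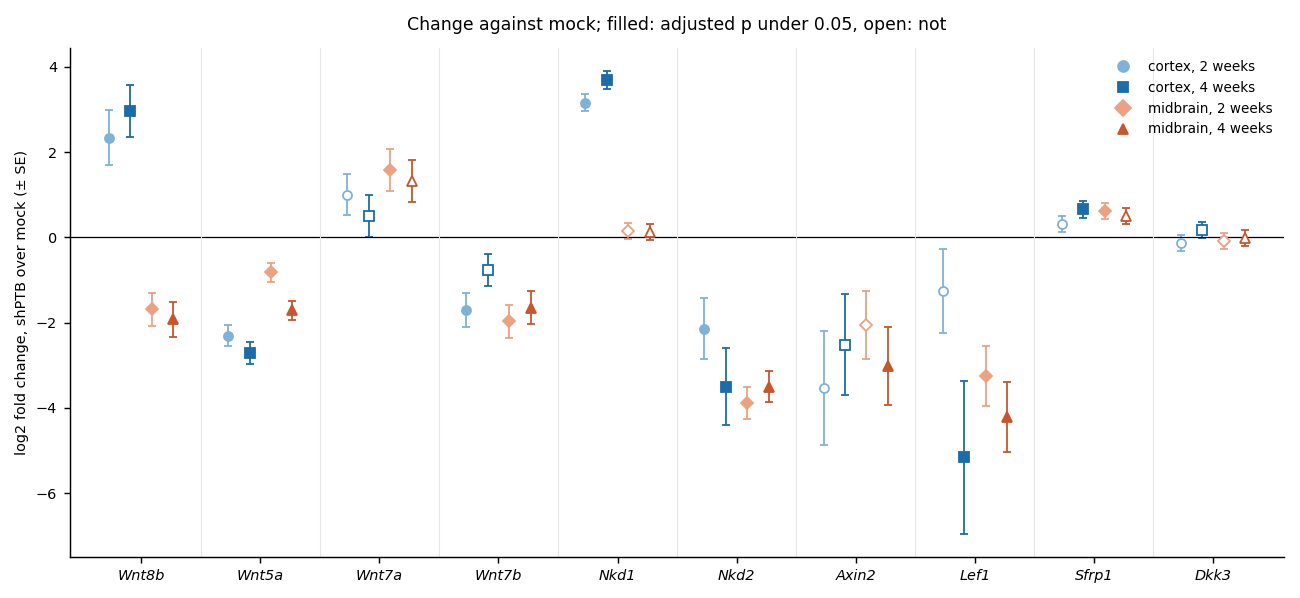
Log2 fold change of shPTB over mock with its standard error for the 10 genes, in cortex (blue) and midbrain (orange) at 2 and 4 weeks, where filled symbols have an adjusted p under 0.05. Wnt8b is the gene with filled symbols on both sides of 0, at 2.34 and 2.96 in cortex and −1.69 and −1.92 in midbrain.

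Nkd1 and Nkd2, the naked cuticle genes, encode cytoplasmic proteins that bind Dishevelled and dampen the response of the cell to Wnt. Nkd1 lies at chr8:88521354-88594884 on the plus strand. It had 2.79 and 3.50 CPM in cortex mock, 30.1 and 26.0 CPM at 2 weeks and 37.0 and 43.8 CPM at 4 weeks. In midbrain it had 16.1 and 15.1 CPM in mock, 17.9 and 16.9 CPM at 2 weeks and 17.5 and 16.3 CPM at 4 weeks. The cortex groups did not overlap and were ordered mock, 2 weeks, 4 weeks, whereas the midbrain libraries formed 1 narrow band.

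In cortex Nkd1 rose 9.03-fold at 2 weeks (3.16 ± 0.21 log2, adjusted p = 2.06e-06) and 13.1-fold at 4 weeks (3.69 ± 0.21, adjusted p = 6.46e-07). In midbrain its changes were 0.16 ± 0.18 and 0.12 ± 0.19 (adjusted p = 0.549 and 0.636), with 95% intervals of −0.25 to 0.56 and −0.29 to 0.53. These midbrain values depended on the scaling: with the length offset Nkd1 passed as higher at both times (up to 0.81), and with total reads it passed as lower at 4 weeks (−0.76). The interaction was −3.00 ± 0.28 at 2 weeks and −3.57 ± 0.28 at 4 weeks (adjusted p = 0.000482 and 8.66e-05), and both terms passed in all 19 alternatives. From 2 to 4 weeks in cortex the step was 0.53 ± 0.19 (adjusted p = 0.196).

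Between the regions, Nkd1 was 5.06-fold higher in midbrain than in cortex mock (2.31 ± 0.20 log2, adjusted p = 0.000140) and 2.38-fold lower at 4 weeks (−1.25 ± 0.19, adjusted p = 0.00202). At 2 weeks the difference was −0.69 ± 0.19 (adjusted p = 0.0834). The order of the regions was thus reversed between mock and 4 weeks. The summed CPM of 8 oligodendrocyte lineage markers went from 37.1 and 38.6 in cortex mock to 190 to 214 in cortex shPTB libraries. In midbrain it went from 32.5 and 35.5 in mock to between 40.4 and 49.5. This sum thus rose beside Nkd1 in cortex, but in mock Nkd1 was higher in midbrain than in cortex and the sum was not. Mbp went from 42 reads in cortex mock to 445 and 389 at 2 and 4 weeks, Mag from 14 to 300 and 207, Sox10 from 164 to 1014 and 1188, and Mog had 6 and 3 reads after 0 in mock. Other markers of the list went the other way or little: Cspg4 went from 132 reads to 9 and 7, Olig1 from 674 to 425 and 219 and Pdgfra from 20 to 17 and 7, in shPTB libraries of smaller scaled size. The part of this marker group in the Nkd1 values was not tested.

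**Figure D3:**
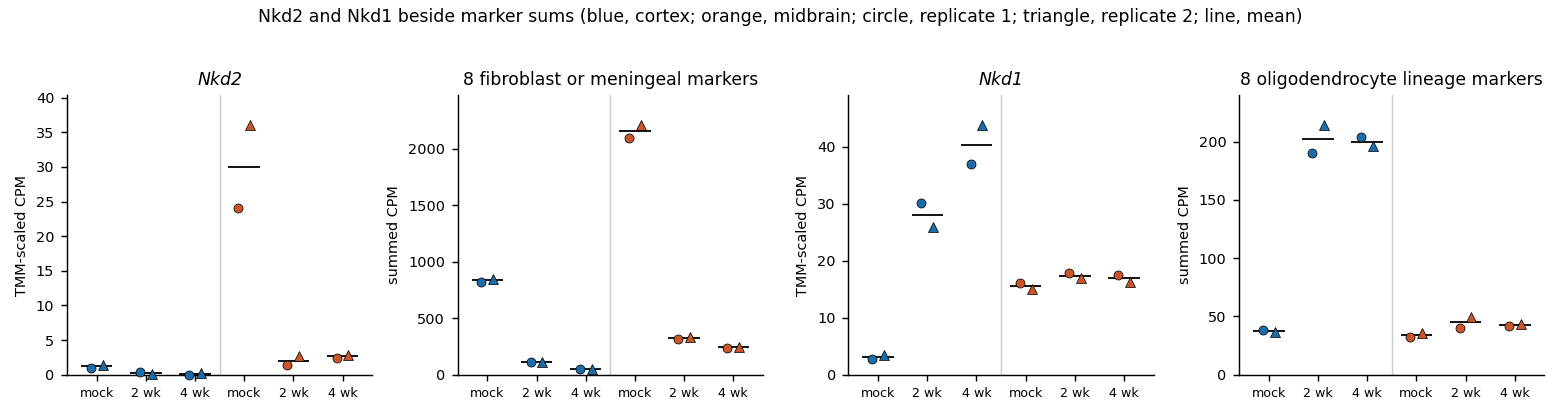
Nkd2 and Nkd1 (TMM-scaled CPM) beside the summed CPM of 8 fibroblast or meningeal and of 8 oligodendrocyte lineage markers in each library, on linear axes from 0, with cortex in blue, midbrain in orange and a line for the mean. Nkd2 and the fibroblast or meningeal sum are both highest in midbrain mock, and Nkd1 and the oligodendrocyte sum are both highest in the 4 cortex shPTB libraries. In mock, Nkd1 is higher in midbrain than in cortex, while the oligodendrocyte sum is not.

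Nkd2, Axin2 and Lef1 are shown with their promoters because the 3 passed as lower in midbrain at 4 weeks. Nkd2 lies at chr13:73818534-73847631 on the minus strand, Axin2, the scaffold whose induction limits β-catenin, at chr11:108920349-108950783 on the plus strand, and Lef1, a DNA-binding partner of β-catenin, at chr3:131110471-131224356 on the plus strand. The windows are the 250 bases before the RefSeq start (GRCm38.p6, 5′ to 3′ on the gene's strand, CG pairs in capitals), at chr13:73847632-73847881, chr11:108920099-108920348 and chr3:131110073-131110322. They hold 14, 24 and 14 CG pairs. For Lef1 the window of the RefSeq start nearest to the GENCODE start was taken out of 4:
Nkd2: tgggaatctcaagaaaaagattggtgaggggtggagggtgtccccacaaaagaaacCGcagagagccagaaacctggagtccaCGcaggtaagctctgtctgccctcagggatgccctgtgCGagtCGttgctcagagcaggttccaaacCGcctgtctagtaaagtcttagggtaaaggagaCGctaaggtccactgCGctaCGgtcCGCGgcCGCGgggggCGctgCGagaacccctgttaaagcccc
Axin2: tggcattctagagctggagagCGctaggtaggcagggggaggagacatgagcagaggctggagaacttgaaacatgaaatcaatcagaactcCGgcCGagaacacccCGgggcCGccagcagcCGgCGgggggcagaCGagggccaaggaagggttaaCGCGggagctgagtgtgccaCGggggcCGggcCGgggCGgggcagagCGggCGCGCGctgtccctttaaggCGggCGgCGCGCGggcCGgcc
Lef1: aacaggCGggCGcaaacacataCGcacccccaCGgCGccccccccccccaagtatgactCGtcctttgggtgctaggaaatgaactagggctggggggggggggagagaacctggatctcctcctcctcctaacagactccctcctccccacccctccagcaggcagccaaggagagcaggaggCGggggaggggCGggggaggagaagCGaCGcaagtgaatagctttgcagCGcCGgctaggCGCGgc

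The Tcf and Lef binding words CTTTGAA and CTTTGAT were searched on both strands of the whole 300-base windows (250 before and 50 after the start). None of the windows of the 6 of these genes with an entry (Wnt8b, Wnt7a, Nkd1, Nkd2, Axin2 and Lef1) held either word, which 8.65% of 32851 windows and 9.88% of 27025 genes did. This says only that these letters are not in these windows.

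Nkd2 had 24.1 and 36.0 CPM in midbrain mock, against 1.36 and 2.65 CPM at 2 weeks and 2.49 and 2.81 CPM at 4 weeks. In cortex it had 0.988 and 1.43 CPM in mock, 0.374 and 0.162 CPM at 2 weeks, and 0 and 0.192 CPM at 4 weeks, from 35, 3 and 1 reads. Midbrain mock thus stood far above the other 10 libraries, and no shPTB library reached the mock level of its region. In midbrain Nkd2 fell by 3.89 ± 0.38 and 3.50 ± 0.37 log2 units (adjusted p = 3.05e-05 and 4.53e-05), 14.7-fold and 11.1-fold. In cortex it fell by 2.14 ± 0.71 and 3.50 ± 0.90 (adjusted p = 0.0366 and 0.0102), which in reads is 4.51-fold (exact interval 1.42 to 22.9) and 12.5-fold (2.11 to 509). The cortex 2-week call was lost in 6 of 15 alternatives, among them DESeq2 and leaving out cortex mock replicate 2 or either 2-week replicate, and the 4-week call without cortex 4-week replicate 1.

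In every state Nkd2 was higher in midbrain than in cortex: 25.1-fold in mock (4.64 ± 0.39 log2, adjusted p = 0.000111), 7.71-fold at 2 weeks (2.88 ± 0.68, 0.0478) and 28.3-fold at 4 weeks (4.64 ± 0.82, 0.00513). The exact intervals of these ratios were 18 to 36.3, 2.44 to 39.1 and 4.79 to 1150. Cortex had only 3 reads at 2 weeks and 1 at 4 weeks. The 2-week difference was lost in 7 of 13 alternatives, including leaving out any of its 4 libraries, and the 4-week difference without cortex 4-week replicate 1. The interactions were −1.76 ± 1.04 at 2 weeks and 0.0042 at 4 weeks (adjusted p = 0.676 and 0.997), so a difference of the regions' log2 responses was not detected. With so few cortex reads, equal responses are not shown either. The sum of the fibroblast or meningeal markers was also highest in midbrain mock: it was 2100 and 2210 CPM in midbrain mock against 826 and 851 in cortex mock, and at most 331 in any shPTB library, all 8 being detected in mock. Acta2 went from 26332 reads in midbrain mock to 172 and 126, and Col1a1 from 32490 to 2911 and 1519, whereas Dcn went from 860 to 1034 and 1116 and Pdgfrb from 25 to 42 and 38. Their part in the Nkd2 values was not tested.

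Axin2 had 4.07 and 1.54 CPM in midbrain mock, 1.13 and 0.221 CPM at 2 weeks and 0.276 and 0.402 CPM at 4 weeks, from 99, 12 and 5 reads. In cortex it had 1.45 and 0.796 CPM in mock, 0.187 and 0 CPM at 2 weeks and 0 and 0.384 CPM at 4 weeks, from 35, 1 and 2 reads. In each region the shPTB groups did not overlap with mock, but the mock libraries numbered 1 were 1.83 times (cortex) and 2.64 times (midbrain) as high as those numbered 2. Axin2 fell in midbrain at 4 weeks (−3.01 ± 0.92 log2, adjusted p = 0.0237), 8.56-fold in reads (exact interval 3.55 to 26.9). The other changes missed the threshold, at −2.05 ± 0.80 in midbrain at 2 weeks (adjusted p = 0.0740) and −3.53 ± 1.34 and −2.52 ± 1.18 in cortex (0.0615 and 0.113). The cortex counts were 13.5-fold lower at 2 weeks (exact interval 2.27 to 549) and 6.27-fold lower at 4 weeks (1.61 to 53.8). The midbrain 4-week call was lost without midbrain mock replicate 1 or either midbrain 4-week replicate, and the cortex and midbrain 2-week changes each passed in 6 of their alternatives. Salmon placed 0 to 48.1% of the Axin2 reads per group on protein-coding transcripts (25.9% in cortex mock and 0% in both 2-week groups), so these values too are for the gene as a whole.

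Lef1 had 3.2 and 2.31 CPM in midbrain mock, 0.339 and 0.221 CPM at 2 weeks and 0.138 and 0.134 CPM at 4 weeks, from 95, 5 and 2 reads. In cortex it had 0.407 and 0.477 CPM in mock, 0.374 and 0 CPM at 2 weeks and no read at 4 weeks, after 13 and 2 reads. By library, a count of 0 in cortex at 4 weeks allows up to 0.549 and 0.576 CPM, above both cortex mock values. The Lef1 level in midbrain mock was above every other library. Lef1 fell in midbrain at both times (−3.25 ± 0.70 and −4.22 ± 0.82 log2, adjusted p = 0.00635 and 0.00284), in reads 10-fold (exact interval 4.14 to 31.5) and 20.5-fold (5.53 to 172). In cortex the 2-week change was −1.26 ± 0.99 (adjusted p = 0.346). The cortex 4-week change passed (adjusted p = 0.0433) and against a floor of 3 reads over the group was at least 1.55-fold lower, but this call was lost in 8 of 13 alternatives, including leaving out any of its 4 libraries. The midbrain 2-week call was lost without midbrain 2-week replicate 2. The 6.40-fold higher level in midbrain than in cortex mock did not pass (2.62 ± 0.61 log2, adjusted p = 0.0658). An antisense gene, Gm43352, had 25.8 reads in all, 22% of the Lef1 reads.

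Among the antagonists, Sfrp1, which binds Wnt ligands outside the cell, lies at chr8:23411502-23449632 on the plus strand. It had 41.9 and 47.8 CPM in cortex mock, 52.8 and 59.1 CPM at 2 weeks and 74.2 and 67.3 CPM at 4 weeks. In midbrain it had 18.8 and 25.4 CPM in mock, 30.9 and 37.1 CPM at 2 weeks and 30.3 and 32.1 CPM at 4 weeks. Every shPTB library stood above the mock libraries of its region, and every cortex library above every midbrain library. Sfrp1 rose in cortex at 4 weeks (0.66 ± 0.19 log2, adjusted p = 0.0186) and in midbrain at 2 weeks (0.62 ± 0.19, 0.0321), but scaled to total reads these values turned to −0.42 and −0.03. The calls were also lost without cortex mock replicate 1 or either cortex 4-week replicate, and without midbrain mock replicate 1 or either midbrain 2-week replicate, and both were lost with the length offset, without a count filter and with only the groups compared (the midbrain call by DESeq2 also, at an adjusted p of 0.0519). Its changes in cortex at 2 weeks and midbrain at 4 weeks were 0.32 ± 0.19 and 0.50 ± 0.20 (adjusted p = 0.220 and 0.0639).

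Sfrp1 was lower in midbrain than in cortex in mock (−1.02 ± 0.19 log2, adjusted p = 0.0197) and at 4 weeks (−1.18 ± 0.20, 0.00357), with −0.72 ± 0.19 at 2 weeks (0.0817). The mock difference was lost without cortex mock replicate 2 or midbrain mock replicate 1 and with the length offset, and the 4-week difference without midbrain 4-week replicate 1.

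Dkk3, a divergent member of the Dickkopf family, lies at chr7:112116017-112159057 on the minus strand. It had 59.3 and 43.3 CPM in cortex mock, 46.6 and 47.2 CPM at 2 weeks and 61.5 and 54.2 CPM at 4 weeks. In midbrain it had 89.5 and 82.8 CPM in mock, 77.5 and 85.1 CPM at 2 weeks and 82.5 and 87.6 CPM at 4 weeks. The shPTB and mock libraries overlapped in every comparison, while all midbrain libraries stood above all cortex libraries. Its 4 changes against mock were −0.13 to 0.17 log2 units (adjusted p = 0.487 to 0.948), with 95% intervals between −0.54 and 0.58. Scaled to total reads it passed as lower in all 4, with −0.95 in cortex at 4 weeks. Midbrain was higher by 0.75 ± 0.18 log2 units in mock (adjusted p = 0.0715), 0.79 ± 0.19 at 2 weeks (0.0478) and 0.56 ± 0.19 at 4 weeks (0.105). The 2-week call was lost in 7 of 13 alternatives, including leaving out any of its 4 libraries.

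**Figure D4:**
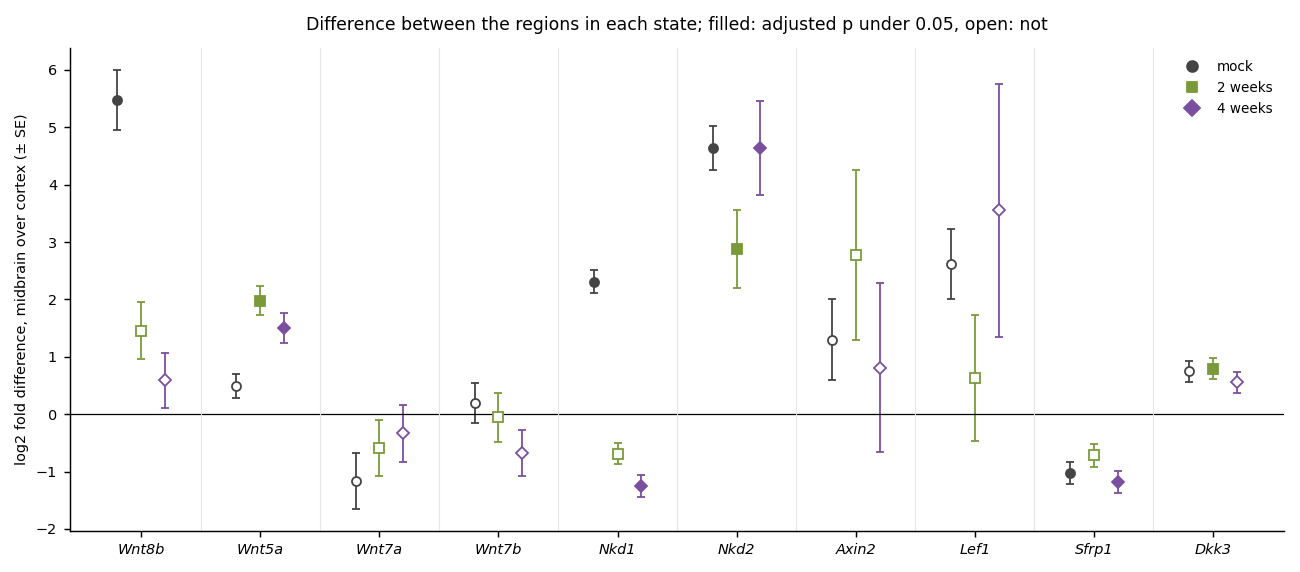
Log2 fold difference of midbrain over cortex with its standard error in mock (circles), at 2 weeks (squares) and at 4 weeks (diamonds), where filled symbols have an adjusted p under 0.05. Wnt8b goes from 5.48 to 0.59 and Nkd1 from 2.31 to −1.25 between mock and 4 weeks, while Nkd2 has 4.64 in both. The Nkd2 value at 4 weeks rests on 1 read in cortex and 39 in midbrain.

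For the regions too, counts of the 10 genes are descriptions, as the genes were chosen with earlier results of these data known. Between the regions, 4 of the 10 genes passed in mock (Wnt8b, Nkd1 and Nkd2 higher in midbrain, Sfrp1 lower), where 2.19% of all genes passed (1.25% higher, 0.938% lower). At 2 weeks 3 passed (Wnt5a, Nkd2 and Dkk3 higher), beside 2.94% of all genes (2.01% higher), and at 4 weeks 4 passed (Wnt5a and Nkd2 higher, Nkd1 and Sfrp1 lower), beside 7.99% (5.48% higher, 2.51% lower). Leaving out any 1 of the 4 libraries at 2 weeks left 0 or 1 call (0 without cortex 2-week replicate 2, where 5 passed at an unadjusted p under 0.05 by edgeR), and leaving out cortex 4-week replicate 1 left 2 at 4 weeks. The mock calls rest on a spread shared over all 6 groups: fitted on the 4 mock libraries alone, the adjusted p was 0.108 for Wnt8b, 0.108 for Nkd2, 0.159 for Nkd1 and 0.750 for Sfrp1.

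The rest of the pathway was followed in 6 lists of 112 names, of which 78 genes passed the count filter. At most 2 genes per direction are named in each list and comparison. A comparison not given for a named gene is therefore not one without change. Their counts against mock stand beside the shares of all tested genes called, 15.9 to 18.7% as higher and 14.7 to 20.9% as lower depending on the comparison, and with so few genes nothing particular to a list is read from them. Of 19 Wnt ligands, 9 were tested, and Wnt1, Wnt3a and Wnt8a had no read in any library. Against mock, 2 ligands were higher and 3 lower in cortex at each time, 2 higher and 4 lower in midbrain at 2 weeks, and 1 higher and 5 lower in midbrain at 4 weeks. The median log2 change of the 9 was −1.01 and −0.68 in cortex and −1.27 and −1.65 in midbrain. Outside the 4 ligands above, Wnt10a rose in all 4 comparisons, by 4.27 ± 0.41 and 2.40 ± 0.52 log2 units in cortex and 1.99 ± 0.26 and 1.99 ± 0.27 in midbrain (adjusted p at most 0.00535). It was also higher in midbrain than in cortex in mock, at 2 weeks and at 4 weeks (3.82 ± 0.39, 1.53 ± 0.28 and 3.41 ± 0.34). These values rest on few cortex reads: 5 in mock, 40 at 2 weeks and 10 at 4 weeks. Midbrain had 85, 180 and 148. Wnt5b fell in cortex at both times (−4.15 ± 1.03 and −4.05 ± 1.03), from a mock mean of 4.77 ± 4.27 CPM (SD, n = 2).

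Among 17 tested receptors and co-receptors, 5 were higher and 1 lower in cortex at 2 weeks, 4 and 3 at 4 weeks, 4 and 0 in midbrain at 2 weeks, and 5 and 4 at 4 weeks, with median log2 changes of 0.03, −0.03, 0.23 and −0.23, where 35, 39.4, 30.6 and 39.2% of all genes were called in either direction. Fzd6, a Frizzled receptor, rose in all 4 comparisons (2.81 ± 0.45, 4.43 ± 0.42, 3.06 ± 0.42 and 3.81 ± 0.42 log2). Lgr6, a receptor for R-spondins, rose in midbrain at 4 weeks (2.62 ± 0.32), and its interaction passed (2.27 ± 0.48, adjusted p = 0.0316). The 5 tested genes for Wnt secretion and R-spondins had medians of −0.87, −0.25, −0.24 and −0.38, with 0 to 2 higher and 1 or 2 lower. Porcn, which acylates Wnt proteins, rose at 2 weeks in cortex and midbrain (1.07 ± 0.28 and 1.29 ± 0.27). Wls, the carrier that brings Wnt proteins to the cell surface, fell in cortex at 2 weeks (−0.87 ± 0.23) and in midbrain at both times (−0.98 ± 0.22 each). Rspo2, which amplifies Wnt responses, rose in midbrain (3.22 ± 0.60 and 2.65 ± 0.61).

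Of 11 tested secreted or membrane antagonists, Sfrp1 and Dkk3 included, 1 to 3 were higher and 2 or 3 lower in the 4 comparisons, with medians of 0.32, −0.10, 0.62 and 0.02. Frzb, an Sfrp1 relative, rose in all 4 (3.45 ± 0.51, 3.2 ± 0.53, 1.21 ± 0.29 and 1.63 ± 0.29 log2) and was higher in midbrain than in cortex in all 3 states. In cortex Frzb had 6 reads in mock, 27 at 2 weeks and 21 at 4 weeks. Sostdc1, which blocks the Lrp co-receptors, fell in cortex (−4.14 ± 0.36 and −3.45 ± 0.33), and its interactions passed (3.47 ± 0.45 and 2.39 ± 0.44, adjusted p = 0.00476 and 0.0150). Sfrp5 fell in midbrain (−4.36 ± 0.40 and −3.78 ± 0.39 log2) and in cortex at 2 weeks (−2.93 ± 0.44). Draxin fell in midbrain (−3.01 ± 0.30 and −3.45 ± 0.32) and in cortex at 4 weeks (−3.13 ± 0.36). Their values at the other cortex time are not given because of the limit on names, so no difference between the times is meant.

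Of 29 tested genes of the intracellular relay, 1 to 6 were higher and 3 to 7 lower, with medians of −0.21, −0.20, −0.17 and −0.40, beside 30.6 to 39.4% of all genes called. Tle4, a co-repressor that binds Tcf factors, rose in cortex (1.26 ± 0.22 and 2.04 ± 0.22 log2), with an interaction of −1.87 ± 0.30 at 4 weeks (adjusted p = 0.00728). Tcf7l2, a nuclear partner of β-catenin, fell at 2 weeks in cortex and midbrain (−1.40 ± 0.29 and −1.0 ± 0.26). Of 13 tested feedback targets, 3 to 5 were higher and 2 to 4 lower, with medians of 0.02, 0.44, −0.43 and 0.12, again beside 30.6 to 39.4% of all genes called. This list holds Nkd1, Nkd2, Axin2 and Lef1. Ascl2 rose in all 4 comparisons (3.50 ± 0.42, 2.3 ± 0.43, 4.44 ± 0.48 and 4.66 ± 0.49). Bambi rose in cortex (2.32 ± 0.23 and 2.99 ± 0.23), and Ccnd1, cyclin D1, fell in all 4 (−2.26 ± 0.29, −2.97 ± 0.31, −1.59 ± 0.26 and −2.25 ± 0.27).

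**Figure D5:**
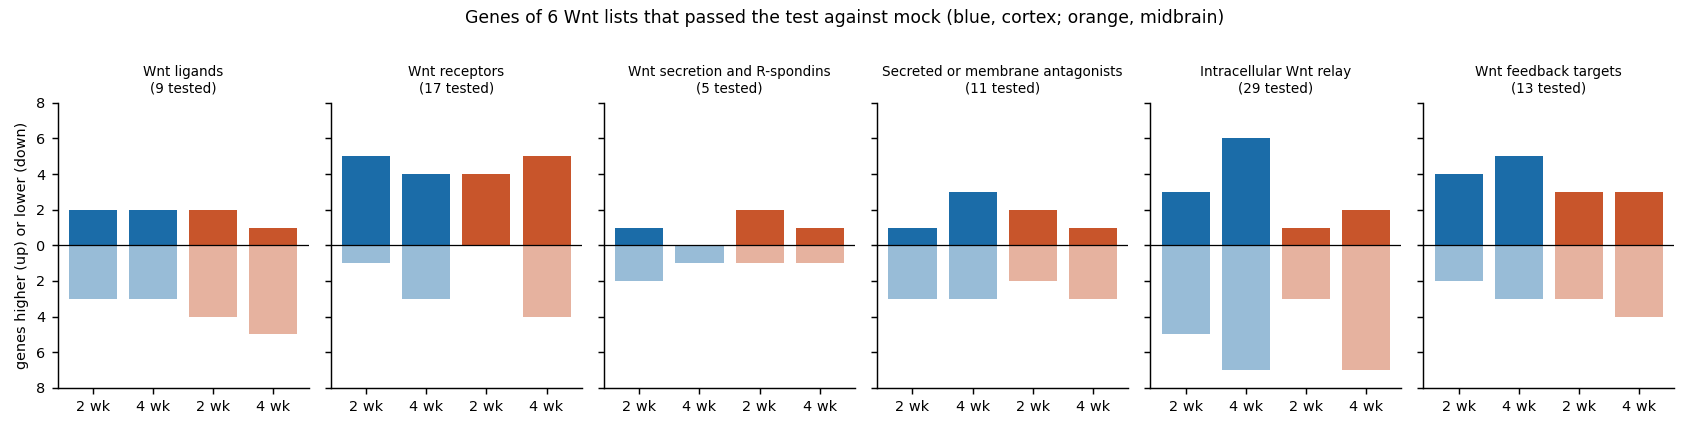
Number of genes in each of 6 Wnt lists that passed the test as higher (bars up) or lower (pale bars down) against mock, in cortex (blue) and midbrain (orange) at 2 and 4 weeks, with the number tested above each panel. No list has genes on 1 side only in all 4 comparisons, and the 9 ligands have more genes lower than higher in each.

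By Pearson correlation of log2 CPM over the 12 libraries, which share their 6 groups and scaling, the genes most like each of the 8 members with a mean of at least 1 CPM were sought among genes with a mean of at least 5 CPM. Nkd2 was most like Col6a2 (r = 0.966) and Qsox1 (0.958), Wnt5a like Pros1 (0.981) and Sparc (0.974), and Wnt8b like Lama4 (0.903) and Fmo1 (0.888). Nkd1 was most like Tle4 (0.941), the co-repressor above, and Cspg5 (0.939). Wnt7a was most like Ednrb (0.954) and Agpat3 (0.953), and Wnt7b like Pcm1 (0.969) and Rbmxl1 (0.963). Sfrp1 was most like Pcdh10 (0.966) and Ddah1 (0.965), and Dkk3 like Plxdc1 (0.965) and S100a10 (0.945).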

How the data were processed

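RNA of 12 libraries was sequenced. Per the labels' protocols, first-strand synthesis used a biotinylated primer and the second strand random primers; strandedness and molecular identifiers are not stated. The submitters' processing notes name Salmon 0.14.1, cutadapt 2.3, DESeq2 and mm10, with an annotation release not given in the sources used here. Deposited by the authors were estimated counts from Salmon per transcript, not normalized between libraries, and TPM values scaled by effective length, used here only to weight lengths in an offset.

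Estimated counts were summed per gene (GENCODE M21, GRCm38; 521 of 140658 transcripts unmatched) and rounded. The quasi-likelihood test of edgeR 4.0.16 (R 4.3.3; filterByExpr, count minimum 10, total minimum 15; TMM factors 0.680 to 1.69; dispersion 0.055; 6 residual degrees of freedom) was fitted over 6 groups, with 11 contrasts, Benjamini-Hochberg adjustment over 14607 genes within each and a threshold of 0.05, and was tested on simulated counts. Exact 95% intervals are for read ratios. Standard errors of log2 changes (±) were back-computed, as the absolute change over the square root of the F statistic of this test. The 95% intervals of log2 changes rest on them. Such an error is unreliable for a very small change, so none is given for the Nkd2 interaction at 4 weeks.

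Alternatives were RLE factors, total reads, DESeq2 1.42.0, no count filter, a stricter one (5 CPM in at least 2 libraries), an offset for transcript length, the replicate number as a block (over all groups or in mock only), mitochondrial genes removed, a fit to only the groups in the comparison, and leaving out single libraries, which assumes that the remaining one varies as other groups do. Leaving out both mock libraries of 1 number was chosen after seeing the data. The members and lists were chosen with earlier results of these data known. Genes named outside the 10 are at most 2 per direction, list and comparison among those past the threshold, by size of change. Promoter sequences are from RefSeq (GRCm38.p6).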

Additional observations from a re-analysis of the deposited data

Results flagged for a closer look

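The responses of the regions to shPTB differed for Wnt8b and Nkd1 by the interaction term of edgeR (midbrain minus cortex, log2). For Wnt8b the difference was −4.03 at 2 weeks and −4.88 at 4 weeks, with a rise in cortex and a fall in midbrain. With the length offset the midbrain values were −0.44 and −0.34 (adjusted p = 0.522 and 0.611), and the 2-week interaction was lost in 9 of 19 alternatives. For Nkd1 it was −3.00 at 2 weeks and −3.57 at 4 weeks, with a rise in cortex and values of 0.16 and 0.12 in midbrain that did not pass. Wnt8b in cortex mock rests on 9 reads.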

How the results depend on the processing

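Of the values for single genes and comparisons recomputed under the alternatives, 1382 kept their direction and their side of the threshold, 82 passed only in the alternative, 85 passed only as reported, 62 changed sign without passing either way, and 4 changed sign with a call in one of the fits. The 4 were all scaled to total reads: Sfrp1 −0.42 and Dkk3 −0.95 in cortex at 4 weeks, Sfrp1 −0.0313 in midbrain at 2 weeks and Nkd1 −0.76 in midbrain at 4 weeks. The median of all genes moves with this scaling, and the cause was otherwise not tested.

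Counts of called genes out of 10 moved by more than 1.5 times as follows, with the cause not tested. With RLE factors the regions differed for 1 gene at 2 weeks. With the length offset this count was 1, the 2-week interaction count 1 and the midbrain count for 4 against 2 weeks 1, which was also 1 without a count filter. With only the groups compared, the counts were 3 for cortex at 2 weeks, 4 for cortex at 4 against 2 weeks, 1 for midbrain at 4 against 2 weeks, 7 for the regions at 2 weeks, 1 for the 2-week interaction and 0 for the regions in mock by edgeR, where 5 passed unadjusted and 0 of all genes were called. Leaving out 1 library gave 3 to 5 for cortex at 2 weeks, 3 to 6 for cortex at 4 weeks, 2 to 6 for midbrain at 2 weeks, 0 to 1 for the regions at 2 weeks, 2 to 4 for the regions at 4 weeks, and 1 to 2 for each interaction. Without both mock libraries numbered 2 the counts were 9 for cortex at 2 weeks, 8 for the regions in mock and 4 for the 4-week interaction.

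Replicate numbers pair no samples by the labels. Deviations of same-numbered libraries correlated at 0.715 between cortex mock and midbrain mock and at −0.0274 to 0.0306 between all other pairs of groups. With the number as a replicate block over all groups the 2-week interaction count was 1, and with the replicate block in mock only the regions differed for 8 genes in mock, Wnt5a, Wnt7a, Lef1 and Dkk3 beside the 4 of the fit without it.

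Of the 10 genes, depth limits Lef1, Axin2, Nkd2 and Wnt8b in cortex most, with 0 to 35 reads per group. Effective lengths changed between mock and shPTB libraries, with a ratio of medians of 0.537 for Wnt8b, 1.9 for Wnt5a, 2.83 for the coding Wnt7a transcript, 2.27 for Wnt7b, 0.994 for Nkd1, 1.88 for Sfrp1 and 2.15 for Dkk3, beside a median of 1.48 (quartiles 1.09 and 1.96) over 14607 genes.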
